A study of Mus musculus with 79 samples.

Results

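The genes of sterol and lipid synthesis were followed through 79 RNA libraries of sorted nuclei from mouse visual cortex. The 41 genes, of 55335 in the count table, were chosen by symbol: 18 enzymes that build cholesterol from acetyl-CoA, 5 genes of the SREBP switch that controls them, 5 genes of sterol uptake and transport, 4 of sterol efflux and turnover, and 9 of the fatty acid arm. They were proposed with the difference between Kir2.1 and its mutant in transduced VIP nuclei in view, so for that contrast, and for those that reuse its libraries, levels and fold changes are described here without a test.

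All mice described carried the INTACT and VIP Cre alleles as wt/ki, and every library was labelled as dark housed for 10 days. Kir2.1 is an inward-rectifying potassium channel that lowers the excitability of the neurons that express it. Per the labels' protocols, animals received an adeno-associated virus (AAV) in the visual cortex at postnatal days 55 to 60, either AAV-Syn1-Kir2.1-2a-mScarlet-KASH or the same vector with a mutant channel, and darkness began 3 days later. The protocol text also speaks of harvest after a return to light, and the label of each library was followed here. The synapsin promoter (Syn1) is active in neurons, while the fraction called all nuclei can hold any cell of the cortex. The groups were transduced VIP nuclei (10 libraries with Kir2.1, 9 with the mutant), non-transduced VIP nuclei (10, 9, and 3 from mice without AAV), transduced neurons (8 and 8), and all non-transduced nuclei (10, 9, and 3 without AAV). Sex was not balanced between the vectors. Transduced VIP nuclei had 6 female and 4 male libraries with Kir2.1, and 4 and 5 with the mutant. Transduced neurons had 5 and 3 with Kir2.1, and 4 and 4 with the mutant. Non-transduced VIP nuclei and all non-transduced nuclei each had 7 and 3 with Kir2.1, and 4 and 5 with the mutant. VIP nuclei belong to inhibitory interneurons named for vasoactive intestinal peptide. The design addresses the neuronal activity that remains in visual cortex in the dark, by silencing neurons with the channel, and the mutant vector gives the matched comparison.

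Cells make cholesterol from acetyl-CoA through mevalonate, the isoprenoid farnesyl diphosphate, squalene and lanosterol. When sterol in the endoplasmic reticulum is low, the escort protein Scap carries the SREBP transcription factors to the Golgi, where they are cut and released to activate these genes. Insig proteins hold Scap back when sterol is plentiful. Adult brain makes its own cholesterol, because plasma lipoproteins hardly cross the blood-brain barrier, and neurons dispose of an excess by hydroxylating it with Cyp46a1.

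SREBP factors bind sterol regulatory elements and act beside NF-Y, a factor that binds CCAAT boxes, so the promoters of the genes were searched for both. RefSeq promoters (build GRCm38.p6, 250 bases before to 50 after a start, both strands searched) were found for 31 of the 41 genes, and Pcyt2, Fdps and Scd1 were among those without one. The letters CCAAT stood in at least 1 promoter of 25 of the 31 genes and of 14 of the 15 sterol enzymes with a promoter. They stood in 42.2% of the 12954 genes that were tested in VIP nuclei and had a promoter, and in 37.4% of all 32851 promoters. The classical sterol regulatory element TCACCCCAC stood in 1 gene, Hmgcs1, and in 0.551% of all promoters. The looser form TCACNCCAC, which includes it, added no other member and stood in 1.24% of all promoters. A match describes letters only, and the absence of one says nothing of binding outside these windows.

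3 promoters are printed here and were chosen after the values were seen. Hmgcs1 was taken as the gene with the element. Mvd was taken as the enzyme with the largest fold change in transduced VIP nuclei, and Sc5d as a late enzyme with a moderate one. Mvd and Sc5d hold CCAAT boxes without the element. Each line gives the 250 bases before the start, 5′ to 3′ on the gene's strand, with CCAAT boxes (read as CCAAT or, on the other strand, ATTGG) and the sterol regulatory element in capitals. They lie at chr13:119690101-119690350 (plus strand), chr8:122443423-122443672 (minus strand) and chr9:42264301-42264550 (minus strand), and none overlaps an annotated exon.
Hmgcs1: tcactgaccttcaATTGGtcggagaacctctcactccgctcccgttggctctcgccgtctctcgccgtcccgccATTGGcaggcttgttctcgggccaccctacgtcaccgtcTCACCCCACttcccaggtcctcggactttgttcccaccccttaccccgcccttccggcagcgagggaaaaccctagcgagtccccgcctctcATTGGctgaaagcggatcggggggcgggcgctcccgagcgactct
Mvd: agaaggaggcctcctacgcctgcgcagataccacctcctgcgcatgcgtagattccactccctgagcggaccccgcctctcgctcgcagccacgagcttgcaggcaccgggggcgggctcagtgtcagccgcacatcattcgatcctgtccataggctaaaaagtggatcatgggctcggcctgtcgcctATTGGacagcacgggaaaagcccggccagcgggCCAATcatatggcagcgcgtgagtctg
Sc5d: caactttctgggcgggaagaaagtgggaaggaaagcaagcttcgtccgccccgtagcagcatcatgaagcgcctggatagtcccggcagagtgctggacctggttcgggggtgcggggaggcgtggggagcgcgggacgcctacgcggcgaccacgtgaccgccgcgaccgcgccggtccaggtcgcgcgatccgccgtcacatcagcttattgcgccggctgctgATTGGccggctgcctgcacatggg
Hmgcs1 holds 3 CCAAT boxes and 1 sterol regulatory element in its stretch, Mvd holds 2 CCAAT boxes, and Sc5d holds 1.

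The libraries held 3219899 to 9267246 counts each. Levels are given as CPM, the usual scaling of counts to library size, with TMM factors over all 79 libraries, and fold changes are log2 values from edgeR. Counts of Kcnj2, the gene of Kir2.1, ran from 141.5 to 1190.8 CPM in transduced libraries and from 0 to 34.98 CPM in the others, except for 2 libraries labelled as non-transduced, Kir2.1 libraries 1 and 2 of all nuclei, at 151.7 and 68.96 CPM. Both vectors carry the channel, so these counts do not separate them. The correlation of a library with its group's median profile ran from 0.795 (Kir2.1 non-transduced VIP library 9) to 0.95. VIP nuclei carried their markers at 7269 to 21893 CPM in sum, against 58.7 to 1379.6 CPM in the other populations.

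In transduced VIP nuclei the sterol pathway stood higher with Kir2.1 than with the mutant along its whole length. Summed over the 18 enzymes, the lowest, median and highest Kir2.1 library stood at 679.8, 1082 and 1269.8 CPM, and those of the mutant at 271.5, 493.9 and 685.8 CPM. The highest mutant library, number 8, stood above the lowest Kir2.1 library, number 6, and the other 9 Kir2.1 libraries were above all 9 mutant libraries. The 9 genes of the fatty acid arm summed to 560.7, 821.9 and 892.0 CPM with Kir2.1 and to 412.3, 484.0 and 539.6 CPM with the mutant, and these groups did not overlap.

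**Figure D1:**
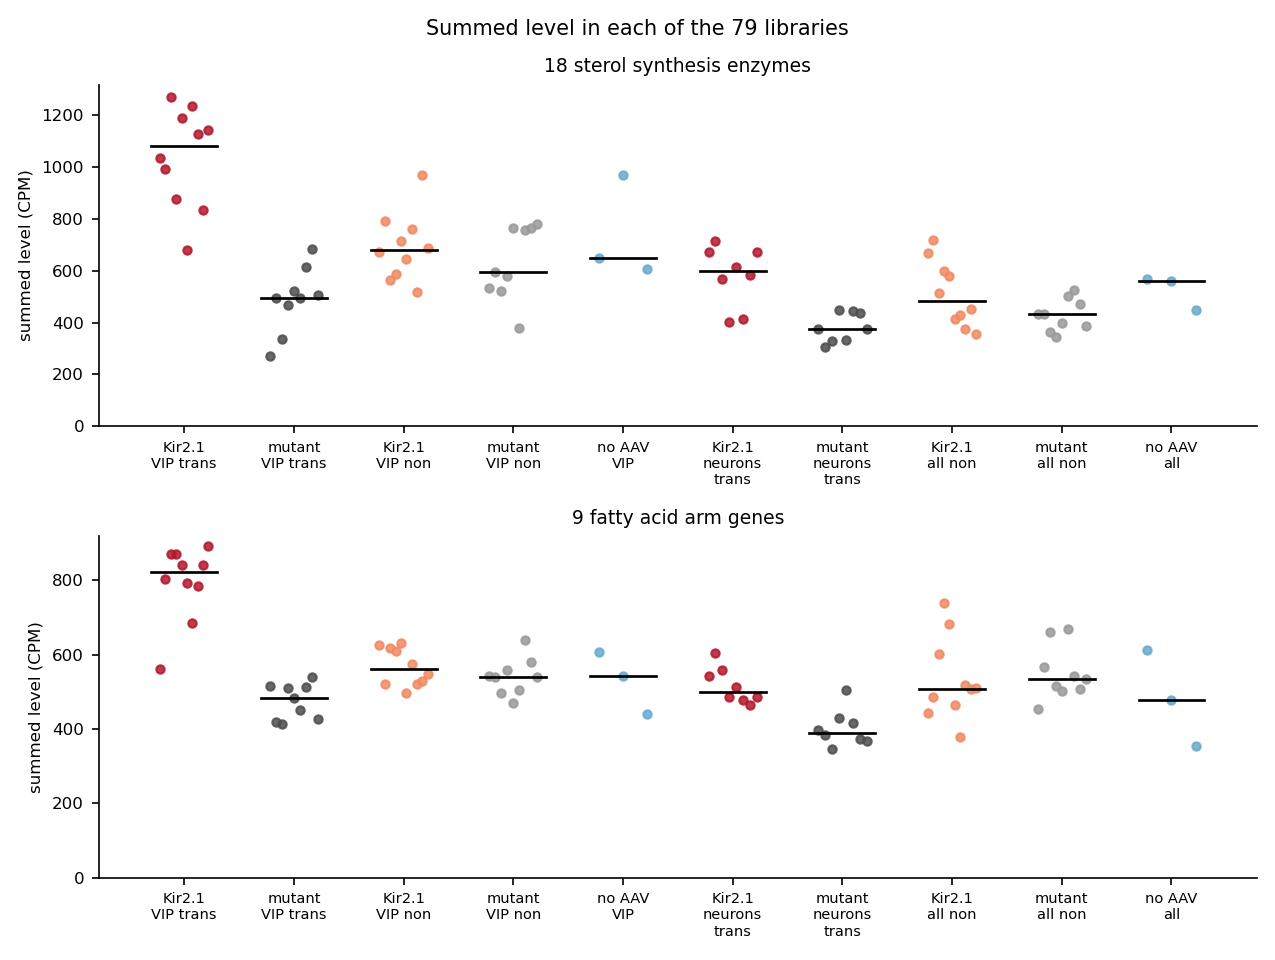
Summed level (CPM) of the 18 sterol enzymes (top) and the 9 fatty acid arm genes (bottom) in each library, 1 point a library, with a line at each group's median; trans and non stand for transduced and non-transduced. Kir2.1 transduced VIP libraries reach 1269.8 CPM in sterol enzymes, and the median of mutant transduced VIP libraries is 493.9 CPM.

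Of the 41 genes, 29 were at least 1.5-fold higher with Kir2.1 in transduced VIP nuclei and 0 at least 1.5-fold lower, where 18.2% of all 21207 genes tested were that much higher and 15.3% that much lower. The contrast is the one the genes were proposed from, so nothing is read from this share. How many of all genes have groups without overlap was not counted, here or in neurons, so overlap is given as description only. Their median log2 fold change was 0.80, against 0.04 over all genes, and 37 of 41 were above 0. All 18 sterol enzymes were above 0, with a median of 1.26 and a range of 0.53 to 3.46. The 7 enzymes up to farnesyl diphosphate had a median of 1.25 and the 11 from squalene onward one of 1.27. Over all genes, adjusted p under 0.05 was reached by 0.354% higher and 1.03% lower, a count not used for the members. The SE given below for this contrast are computed from the F statistic of the fit, so fold change and SE together restate that statistic. They describe the uncertainty of a fitted value and are not used as a test of the members.

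Among the early steps, Mvd, which decarboxylates mevalonate diphosphate, was at 1.02, 19.4 and 45.2 CPM with Kir2.1 and at 0, 1.00 and 5.92 CPM with the mutant, a log2 fold change of 3.46 ± 0.71 (SE). In 9 of 10 Kir2.1 libraries Mvd stood above every mutant library. Idi1, which isomerises isopentenyl diphosphate, was at 2.03, 9.11 and 17.3 CPM against 0, 0.948 and 3.37 CPM, a log2 fold change of 2.85 ± 0.68. Fdps, farnesyl diphosphate synthase, was at 33.7, 69.7 and 98.9 CPM against 7.33, 19.4 and 30.2 CPM, a log2 fold change of 1.92 ± 0.27, and its groups did not overlap. Fdps (chr3:89093588-89101959) overlaps Gm43738 on the same strand, whose own log2 fold change was 0.75, and how reads of the pair were assigned is uncertain. Acat2, which joins acetyl-CoA units, had group medians of 34.5 and 12.4 CPM (log2 fold change 1.25 ± 0.30). Hmgcs1, which makes the substrate for mevalonate synthesis, had medians of 62.6 and 40.1 CPM (0.72 ± 0.24), with 8 of 10 Kir2.1 libraries above every mutant library. Mvk, mevalonate kinase, had medians of 10.2 and 4.11 CPM (1.22 ± 0.61). Mvk rested in part on Kir2.1 library 5 at 55.9 CPM, next to 16.8 CPM in the second highest, and its log2 fold change without that library was 0.62. Pmvk at 0.54 was under 1.5-fold.

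From squalene onward, Sqle, the epoxidase whose step is rate-limiting in this branch, was at 34.2, 66.9 and 105.7 CPM with Kir2.1 and at 9.31, 20.8 and 40.5 CPM with the mutant, a log2 fold change of 1.64 ± 0.28. Msmo1, which removes methyl groups from the sterol nucleus, was at 89.7, 191.8 and 237.4 CPM against 21.2, 60.6 and 101.4 CPM, a log2 fold change of 1.62 ± 0.25. Both showed 9 of 10 Kir2.1 libraries above every mutant library and 8 of 9 mutant libraries below every Kir2.1 library. Nsdhl, which works beside Msmo1, was at 9.73, 43.1 and 88.7 CPM against 4, 14.5 and 28.4 CPM, a log2 fold change of 1.69 ± 0.35. Lss, which closes the rings to lanosterol, was at 28.1, 47.7 and 69.7 CPM against 7.80, 20.6 and 30.7 CPM, a log2 fold change of 1.36 ± 0.29. These 4 enzymes span the branch from squalene to the removal of methyl groups. Fdft1, squalene synthase, had group medians of 94.4 and 51.7 CPM (log2 fold change 0.97 ± 0.23), and Cyp51, lanosterol demethylase, of 71.7 and 42.6 CPM (0.72 ± 0.24). Hsd17b7, a ketosteroid reductase of the branch, had medians of 10.2 and 4.24 CPM (1.35 ± 0.61) and was at 0 in the lowest library of both groups. Among the last steps, Dhcr7 had medians of 45.7 and 18.5 CPM (1.27 ± 0.34), Sc5d of 63.9 and 46.8 CPM (0.78 ± 0.28) and Ebp of 20.9 and 14.5 CPM (0.59 ± 0.43). Lss overlaps 4930483K19Rik and Hmgcs1 overlaps Gm48342 on the other strand, with log2 fold changes of 1.32 and 0.97, and Mvd and Fdft1 overlap Gm20388 and Ctsb on the other strand. Without strand, reads of such pairs cannot be told apart. Ebp was the last gene past the 1.5-fold line, and Acly and Cyp46a1, at 0.56 each, were just short of it. Tm7sf2, a sterol reductase, was at 0.53.

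**Figure D2:**
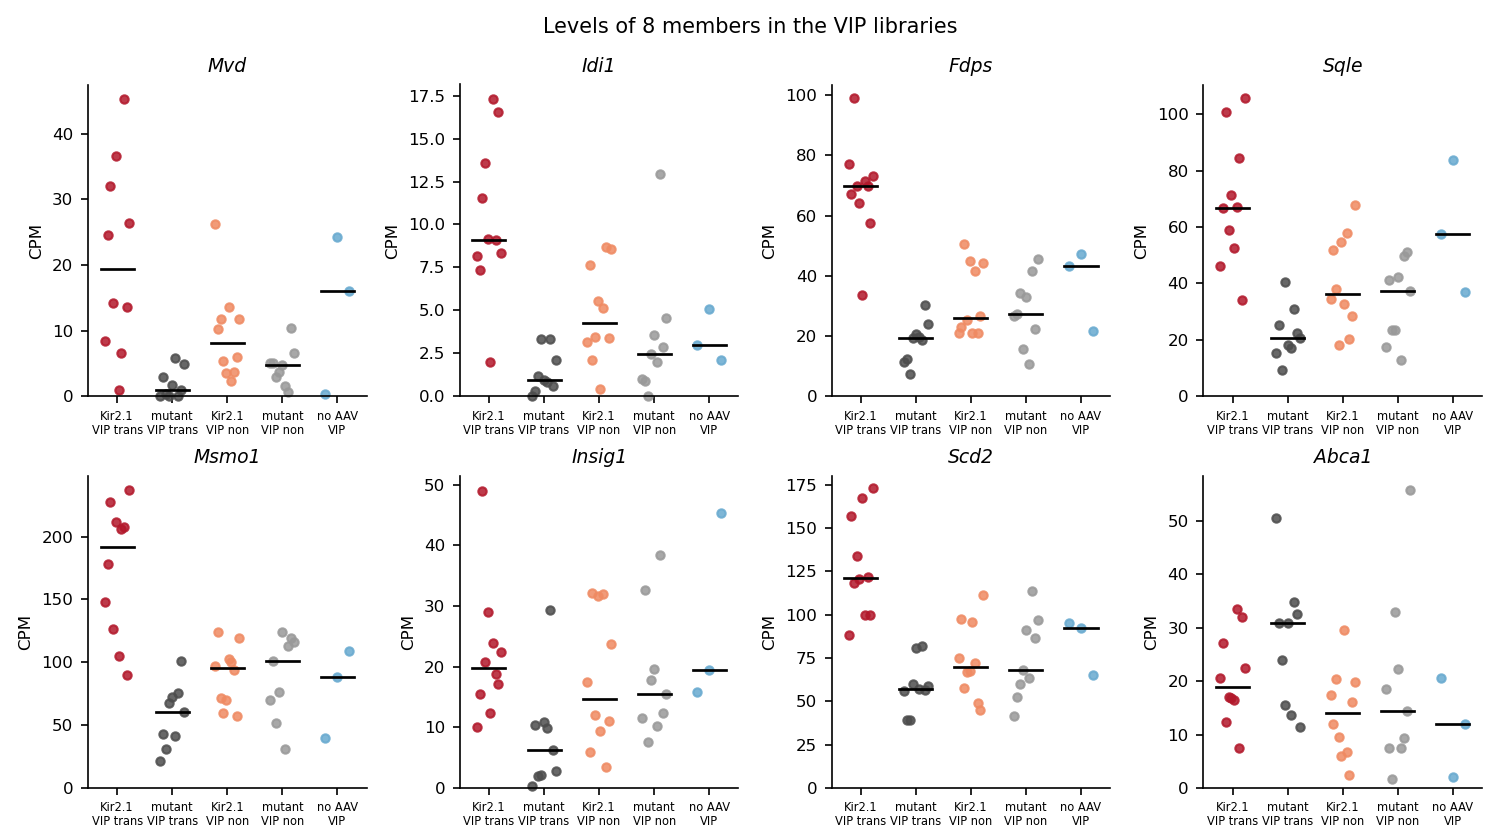
CPM (linear axis from 0) of 8 genes in each VIP library, with a line at the group median. Fdps and Scd2 do not overlap between Kir2.1 and mutant transduced nuclei, and in Mvd, Idi1, Fdps, Sqle and Msmo1 the medians of the non-transduced and no-AAV groups lie between those of the 2 transduced groups, while Abca1 has its highest median, 30.8 CPM, with the mutant.

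The 5 genes of the SREBP switch were above 0 too, with a median log2 fold change of 0.69 and a range of 0.14 to 1.43. Insig1, itself a target of SREBP and a brake on it, was at 9.99, 19.8 and 49.0 CPM with Kir2.1 and at 0.303, 6.20 and 29.3 CPM with the mutant, a log2 fold change of 1.43 ± 0.47. Its groups overlapped, since mutant library 7 stood above 9 of the 10 Kir2.1 libraries. Srebf2, the factor gene most tied to sterol synthesis, had group medians of 98.0 and 62.5 CPM (log2 fold change 0.69 ± 0.17), and Srebf1, the one most tied to fatty acids, of 14.8 and 8.29 CPM (0.80 ± 0.37), while Scap at 0.18 and Insig2 at 0.14 were under 1.5-fold. Of the uptake and transport genes, Npc2, which takes part in lysosomal sterol export, had medians of 13.9 and 6.34 CPM (1.20 ± 0.52), and its partner Npc1 was at 0.18. Tmem97, a sterol-binding membrane protein, had medians of 20.7 and 18.7 CPM (0.77 ± 0.41), and Mylip, which marks lipoprotein receptors for breakdown, of 10.5 and 8.29 CPM (0.75 ± 0.51). Stard4, a carrier of sterol in the cytosol, was at 1.02 ± 0.75. Stard4 was sparse, with 0 to 31.3 CPM with Kir2.1 and 0 to 6.51 CPM with the mutant, and its log2 fold change was 0.37 without Kir2.1 library 1.

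The 4 efflux and turnover genes did not share this direction. Abca1, the pump that loads cholesterol on lipoprotein particles, was at 7.54, 18.8 and 33.5 CPM with Kir2.1 and at 11.5, 30.8 and 50.5 CPM with the mutant, a log2 fold change of -0.38 ± 0.42. Soat1, which esterifies cholesterol for storage, was at -0.36 ± 0.39, Abcg1 at -0.03 ± 0.22 and Cyp46a1 at 0.56 ± 0.28, so none reached 1.5-fold and 3 of the 4 were below 0.

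In the fatty acid arm, Scd1 and Scd2, which put the first double bond into saturated fatty acids, had log2 fold changes of 3.26 ± 0.99 and 1.14 ± 0.19. Scd2 was at 88.1, 121.3 and 173.3 CPM with Kir2.1 and at 39.0, 57.1 and 81.8 CPM with the mutant, and its groups did not overlap. Scd1 was sparse, at 0.601, 6.79 and 25.4 CPM against 0, 0 and 2.97 CPM. Pcyt2, which makes the head group donor of phosphatidylethanolamine, was at 89.5, 215.5 and 266.7 CPM against 45.1, 74.7 and 109.4 CPM, a log2 fold change of 1.33 ± 0.23. In 8 of 10 Kir2.1 libraries Pcyt2 stood above every mutant library. The desaturases of polyunsaturated fatty acids followed, with medians of 146.1 and 61.3 CPM for Fads1 (1.13 ± 0.22) and 26.5 and 11.6 CPM for Fads2 (0.85 ± 0.36). Fasn, fatty acid synthase, had medians of 23.4 and 16.1 CPM (0.64 ± 0.38). Acly at 0.56, Acaca at 0.25 and Elovl6 at -0.04 were under 1.5-fold.

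Other measures moved in the same libraries. The summed VIP markers were 7269 to 12611 CPM with Kir2.1 and 17987 to 19688 CPM with the mutant. Markers of oligodendrocytes, cells with high sterol synthesis, summed to 93.3 to 541 CPM and 138.3 to 442 CPM, and those of astrocytes to 272.3 to 447.4 CPM and 340.3 to 564.4 CPM, so both overlapped between the groups. By gene, 7 of the 11 astrocyte markers had a positive log2 fold change with Kir2.1 (median 0.50), 5 of them at least 1.5-fold higher and 2 others at least 1.5-fold lower, so the median and the sum of that list differ in sign. Of the 10 oligodendrocyte markers 8 were above 0 (median 0.26), 2 at least 1.5-fold higher and 0 that much lower, and of the 10 VIP markers 4 were at least 1.5-fold lower and 1 that much higher. Of the 12 excitatory neuron markers 5 were at least 1.5-fold higher and 1 that much lower (median 0.30). The GABAergic list, read in 9 rows, had 0 higher and 3 lower (median -0.48). Of 6 vascular markers tested 4 were higher and 1 lower (median 1.73), with sums of at most 19.3 and 15.6 CPM. Microglia had 3 and 1 of 9, other interneurons 1 and 1 of 7, and oligodendrocyte precursors 1 and 0 of 3. Over all genes 18.2% were that much higher and 15.3% lower. The part of any of these in the difference was not tested. Here and in all the comparisons that follow, fewer cells of a type and less RNA per cell cannot be told apart. Left out together, Kir2.1 libraries 1 and 6 and mutant library 1, which were unlike their groups, left 25 genes at least 1.5-fold higher and 0 lower.

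Against non-transduced VIP nuclei of the same vector, most of the genes stood higher in transduced nuclei with Kir2.1 and lower with the mutant. With Kir2.1, 38 of 41 genes were higher in transduced than in non-transduced nuclei, 14 of them by at least 1.5-fold (15.3% of all genes), and Soat1 alone was that much lower, at -0.73 ± 0.38 (15.7% of all genes). Dhcr7 had the largest log2 fold change of the 41, followed by Mvd at 1.16, Idi1 and Fdps at 1.11 and Nsdhl at 1.07. With the mutant, 33 of 41 were lower in transduced nuclei, 11 by at least 1.5-fold (14.3% of all genes), and 0 were that much higher (13.2% of all genes). Scd1 at -1.66, Mvd at -1.23, Idi1 at -1.21, Insig1 at -1.14 and Stard4 at -1.07 were lowest. The 18 enzymes had a median of 0.70 in the first contrast and -0.44 in the second. These contrasts reuse the transduced libraries and carry no test. The efflux and turnover genes had medians of 0.37 and 0.35, with Abca1 at 0.57 and 0.54, and each of the 4 had the same sign with both vectors.

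Transduced neurons sorted without the VIP mark gave a comparison in other libraries than those the genes were proposed from, although earlier results of these libraries were known too. Whether the neuron libraries share animals with the transduced VIP libraries is not labelled and was not examined, so the comparison may not be independent. Tm7sf2 and Pcyt2 rose with Kir2.1, and 0 genes fell (edgeR quasi-likelihood F test, Benjamini-Hochberg adjusted p under 0.05, two-sided). The 39 genes that passed the filter on low counts, all but Idi1 and Scd1, were read against 2.18% of 15949 genes called higher and 3.45% called lower. Of the 39, 28 had a positive log2 fold change and the median was 0.31, against 0.04 over all genes. At an unadjusted p under 0.05 there were 10 of 39, where 18.4% of all genes were, and DESeq2 also called 2 higher and 0 lower.

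Tm7sf2 (chr19:6062821-6068373), the sterol reductase that also sits in the nuclear membrane, was at 130.2, 168.3 and 406.1 CPM with Kir2.1 and at 53.8, 88.6 and 119.2 CPM with the mutant. Every Kir2.1 library was above every mutant library. The log2 fold change was 1.17 ± 0.21 (edgeR adjusted p = 0.00065), and 0.93 (edgeR adjusted p = 0.000473) without Kir2.1 library 10, which held the highest value and was unlike its group. Tm7sf2 overlaps Vps51 on the same strand, whose log2 fold change was 0.71 (edgeR adjusted p = 0.12), so part of its reads may be uncertain. Pcyt2 (chr11:120610087-120617936) was at 76.9, 124.8 and 166.3 CPM with Kir2.1 and at 51.1, 68.5 and 103.1 CPM with the mutant. In 7 of 8 Kir2.1 libraries Pcyt2 stood above every mutant library, and the log2 fold change was 0.87 ± 0.17 (edgeR adjusted p = 0.0018). Pcyt2 thus rose in neurons and was 1.33 higher on the log2 scale in transduced VIP nuclei, whereas Tm7sf2 had the smallest value of all 18 sterol enzymes there. In libraries of male mice alone, 3 with Kir2.1 and 4 with the mutant, neither passed the threshold: Tm7sf2 had a log2 fold change of 1.46 (edgeR adjusted p = 0.090) and Pcyt2 of 0.63 (edgeR adjusted p = 0.40).

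**Figure D3:**
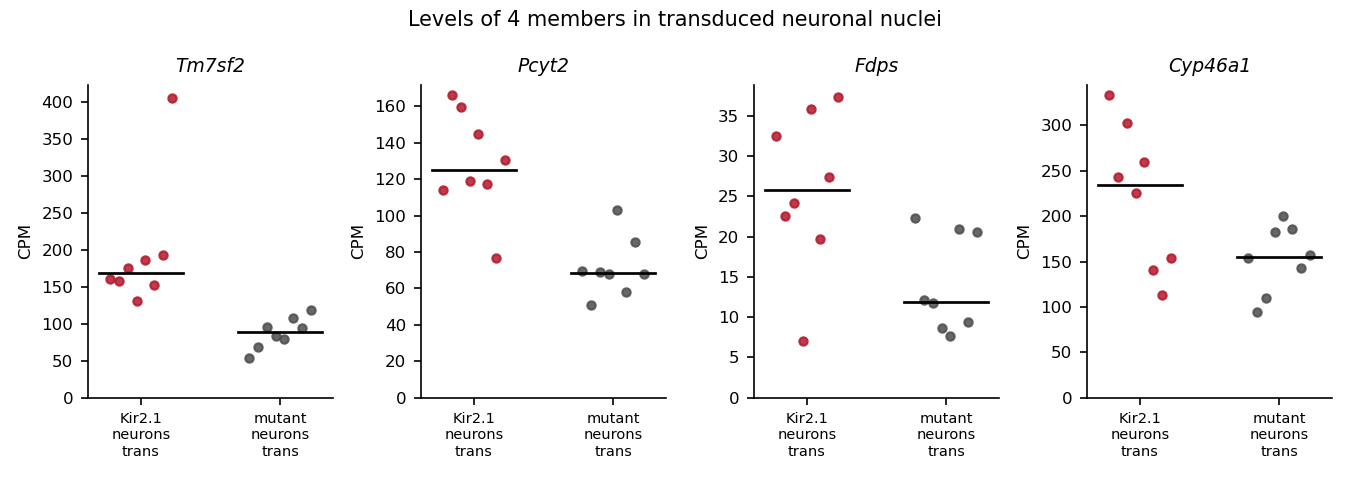
CPM (linear axis from 0) of 4 genes in the 8 Kir2.1 and 8 mutant libraries of transduced neurons, with a line at the group median. Tm7sf2 does not overlap between the groups, with 1 Kir2.1 library at 406.1 CPM, and Pcyt2 overlaps in part; Fdps and Cyp46a1 did not pass the test.

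The other enzymes did not pass the test in neurons. Of 17 sterol enzymes tested, 14 had a positive log2 fold change, with a median of 0.52 and a range of -0.20 (Lss) to 1.17. Their summed level was 400.8, 599.0 and 715.9 CPM with Kir2.1 and 305.3, 375.4 and 450.1 CPM with the mutant, with 6 of 8 Kir2.1 libraries above all mutant libraries. Hsd17b7 had a log2 fold change of 0.97 ± 0.46 (edgeR adjusted p = 0.25), Fdps of 0.89 ± 0.32 (0.10), Sqle of 0.87 ± 0.44 (0.30), Dhcr7 of 0.73 ± 0.28 (0.14), Ebp of 0.72 ± 0.35 (0.27) and Msmo1 of 0.52 ± 0.28 (0.32). Hmgcs1 at 0.24, Fdft1 at -0.03 and Cyp51 at -0.01 were near 0. Insig1 was at 0.62 ± 0.53, Srebf1 at 0.54 ± 0.37, Srebf2 at 0.12 ± 0.18, Scap at 0.12 ± 0.18 and Insig2 at 0.01 ± 0.27. The 5 uptake and transport genes ran from -0.45 (Mylip) to 0.02 (Tmem97), and the efflux genes Abca1, Abcg1 and Soat1 were at -0.30, -0.29 and -0.03. Cyp46a1, the neuronal hydroxylase, was at 0.55 ± 0.20 (edgeR adjusted p = 0.11). In the fatty acid arm Fads2 had a log2 fold change of 0.93 ± 0.38 (edgeR adjusted p = 0.18), Fasn of 0.80 ± 0.31 (0.15), Fads1 of 0.52 ± 0.22 (0.18) and Scd2 of 0.44 ± 0.23 (0.33), and Acly, Acaca and Elovl6 lay between -0.13 and 0.05.

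Further genes of the pathway, taken from lists written with earlier results of these data known, gave 5 calls in neurons, where 2.18% of all genes were called higher and 3.45% lower. Taken over all these lists together, the calls lie near those shares, so nothing is read from their number. In the list of lipoprotein receptors and sterol transfer proteins, 0 of 17 rose and 3 fell, all of them oxysterol-binding related proteins, which move lipids at membrane contacts. Osbpl3 was at 44.9, 62.5 and 75.3 CPM with Kir2.1 and at 130.4, 174.9 and 237.6 CPM with the mutant, a log2 fold change of -1.53 ± 0.15 (edgeR adjusted p = 4.7e-07). Osbpl1a had -0.87 ± 0.13 (edgeR adjusted p = 0.00011) and Osbpl8 -1.13 ± 0.18 (edgeR adjusted p = 0.00018), and no Kir2.1 library of these 3 genes reached the lowest mutant library. In the list of SREBP processing and sterol-regulated breakdown, 1 of 15 rose and 1 fell. Faf2, which takes part in degradation at the endoplasmic reticulum, had 0.60 ± 0.17 (edgeR adjusted p = 0.038), and Fbxw7, the ubiquitin ligase subunit that marks SREBP for breakdown, -0.56 ± 0.13 (edgeR adjusted p = 0.0078). None of the 14 isoprenoid branch genes, 10 oxysterol genes, 13 phospholipid head group genes and 28 other fatty acid genes tested passed. In transduced VIP nuclei, where no test is given, the same 3 fallen genes did not share a direction, with Osbpl3 at -0.94 ± 0.17, Osbpl8 at -0.11 ± 0.22 and Osbpl1a at 0.10 ± 0.22.

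Markers of cell types also moved in the neuron libraries that gave the Tm7sf2 and Pcyt2 calls. Of the 8 GABAergic markers 7 could be tested, and all 7 were at least 1.5-fold lower with Kir2.1, where 11.5% of all genes were. Their median log2 fold change was -1.07, and 3 passed the test, where 3.45% of all genes were called lower. Of the other interneuron markers 2 of 5 tested were called lower (median -0.93), and of the VIP markers 1 of 3. GABAergic markers summed to 71.4 to 837.7 CPM in the Kir2.1 libraries of neurons and 414.6 to 1110 CPM in the mutant ones. Of the 8 astrocyte markers tested 3 were called lower (median -0.50), with sums of 271.7 to 385.9 CPM against 486.8 to 612.1 CPM, without overlap. Of the 8 oligodendrocyte markers tested 0 passed in either direction (median 0.14), with sums of 201.2 to 323.4 CPM against 191.0 to 465.5 CPM. Of the 12 excitatory neuron markers tested 0 passed (median -0.42), with 4 at least 1.5-fold lower and 1 that much higher. Of the 6 microglia markers tested 0 passed (median 0.51), with 2 at least 1.5-fold higher and 0 that much lower. The part of these markers in the 2 calls, and in those of the wider lists, was not tested.

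Nuclei of injected mice labelled as non-transduced gave 0 calls, which does not show that the genes were unchanged. In non-transduced VIP nuclei edgeR called 0 of 41 genes, where 0% of 21207 genes were called in either direction, and at an unadjusted p under 0.05 there were 4 of 41 genes, where 8.69% of all genes were. DESeq2 also called 0 of the 41. The log2 fold changes ran from -0.42 (Abca1) to 1.07 (Mvd, SE 0.64), with a median of 0.12. Tm7sf2 was at 0.67 ± 0.25 and Pcyt2 at 0.56 ± 0.22, with edgeR adjusted p of 0.35 and 0.41. The 18 sterol enzymes had a median of 0.18, against 0.008 over all genes, and 12 were above 0. The 7 enzymes up to farnesyl diphosphate had a median of 0.26, with 6 above 0. The median over the 11 enzymes from squalene onward was 0.00083, with 6 above 0, and Msmo1, Nsdhl, Hsd17b7, Dhcr7, Insig1 and Scd2 lay between -0.02 and 0.02. In all non-transduced nuclei edgeR again called 0 of 41, where 0% of 21362 genes were called, with 3 of 41 at an unadjusted p under 0.05, where 6.03% of all genes were, and 0 by DESeq2. There the log2 fold changes ran from -0.69 ± 0.30 (Hmgcs1) to 0.92 ± 0.67 (Idi1), and Tm7sf2 was at 0.48 ± 0.16 (edgeR adjusted p = 0.59). In all non-transduced nuclei the 18 enzymes had a median of 0.26, against -0.004 over all genes, and 16 were above 0. All 11 enzymes from squalene onward were above 0 there, with a median of 0.28. Without the 2 Kir2.1 libraries of high Kcnj2, a choice made after seeing the data, edgeR again called 0 higher and 0 lower. A gap between these results and those of transduced nuclei was not itself tested.

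**Figure D4:**
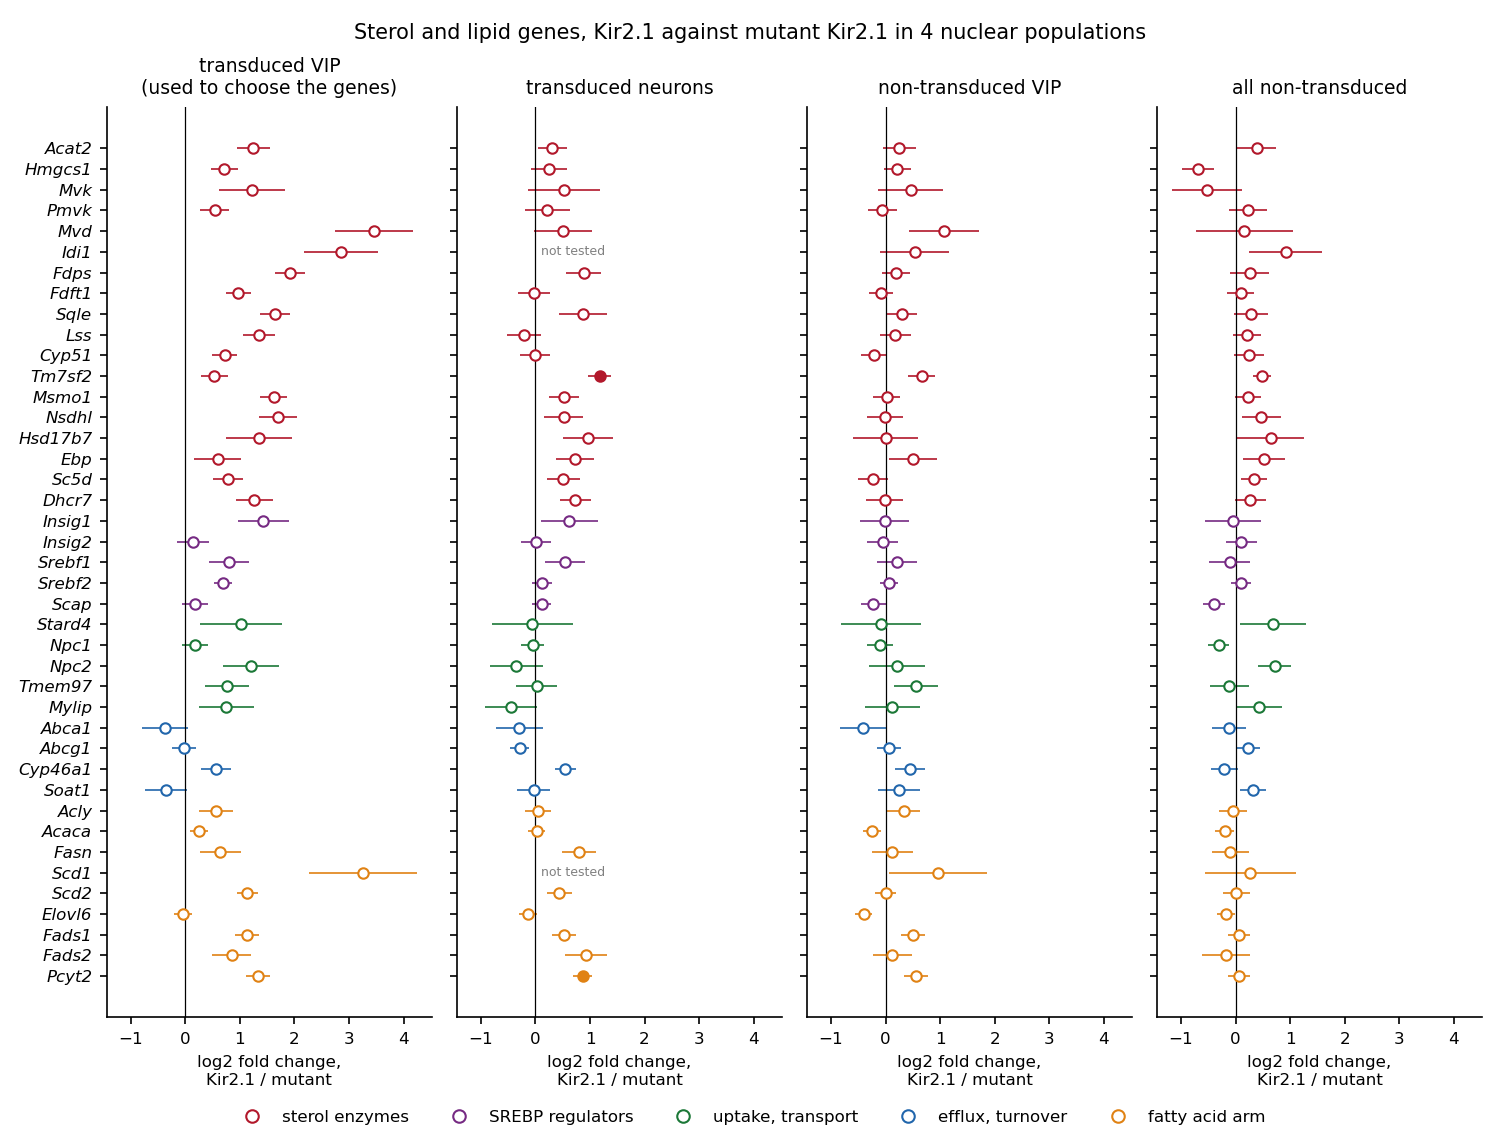
Log2 fold change of Kir2.1 over mutant for the 41 genes in 4 populations, with bars of 1 SE, coloured by arm; filled points passed the test (adjusted p under 0.05), and transduced VIP nuclei carry no test. Mvd reaches 3.46 in transduced VIP nuclei and 1.07 in non-transduced ones, and the filled points are Tm7sf2 and Pcyt2 in neurons.

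Mice without AAV, all 6 libraries of which came from males, gave a second reference that shares the non-transduced libraries above. In VIP nuclei edgeR called 0 of 41 genes between AAV and no AAV, where 0.00943% of genes were called higher and 0% lower, and 4 of 41 had an unadjusted p under 0.05, where 9.88% of all genes had. DESeq2 also called 0. With 3 libraries without AAV in each population, such a result does not show that the genes were unchanged. Fitted folds of at least 1.5 were met by 4 genes higher and 7 lower, where 27.2% of all genes were that much higher and 17.0% lower. The members' median was -0.01, against 0.12 over all genes. In all nuclei edgeR called 0 of 41, where 0.197% were called higher and 0.0140% lower, and 5 of 41 had an unadjusted p under 0.05, where 10.7% of all genes had. The members' median there was -0.08, against 0.09 over all genes, and 0 were again called without the 2 Kir2.1 libraries of high Kcnj2. Cyp46a1 was at 29.1 to 161 CPM in VIP nuclei with either vector and 83.2, 128.7 and 181.9 CPM without AAV, a log2 fold change of -1.08 ± 0.34 (edgeR adjusted p = 0.39). In all nuclei it was at 31.3 to 232.4 CPM against 188.1, 216.3 and 252.8 CPM, a log2 fold change of -1.20 ± 0.30 (edgeR adjusted p = 0.10). DESeq2 called it lower there. Scd1 had 1 count in all over the 3 no-AAV libraries of all nuclei and 562 over the 19 with AAV. The ratio was 81.6, with an exact 95% interval of 14.6 to 3227 for the counting of reads only. DESeq2 called Scd1 higher and edgeR did not (adjusted p = 0.26). The summed sterol enzymes of the no-AAV libraries, 605.6, 650.7 and 968.5 CPM in VIP nuclei and 447.6, 562.0 and 566.6 CPM in all nuclei, lay within or near the range of the non-transduced groups.

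Across sorted populations labelled as non-transduced or from mice without AAV, many sterol enzymes stood higher in VIP nuclei than in all nuclei. These libraries are those of the non-transduced comparisons above. In 22 libraries of each, edgeR called 11 of 41 genes higher in VIP nuclei and 3 lower, where 10.7% of 22855 genes were called higher and 16.7% lower. The 11 were 7 of the 18 sterol enzymes, Insig1 and Srebf2 of the switch, Tmem97 and Fads1. Those lower were Scd2, Abca1 and Cyp46a1. Without the 2 Kir2.1 libraries of all nuclei in which Kcnj2 was high, edgeR called the same 11 genes higher and the same 3 lower. The 18 enzymes had a median log2 fold change of 0.61, against -0.05 over all genes, and 16 were above 0.

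Fads1, a desaturase of long fatty acids, was at 36.8, 70.5 and 129.5 CPM in VIP nuclei and 18.2, 40.96 and 68.0 CPM in all nuclei, a log2 fold change of 0.92 ± 0.17 (edgeR adjusted p = 2.6e-05). Msmo1 was at 31.2, 95.8 and 124.1 CPM against 22.3, 42.4 and 91.1 CPM, 0.95 ± 0.19 on the log2 scale (edgeR adjusted p = 6.6e-05). Cyp51 was at 37.8, 60.6 and 123.1 CPM against 14.6, 31.8 and 91.5 CPM, 0.94 ± 0.18 (edgeR adjusted p = 7.1e-05). All of these groups overlapped. Cyp51 overlaps Akap9 on the other strand, which was itself 0.70 higher (edgeR adjusted p = 1.4e-06), and without strand their reads cannot be told apart. Fdft1 was at 42.5, 78.5 and 155.1 CPM against 18.5, 38.8 and 77.8 CPM, 0.85 ± 0.17 (edgeR adjusted p = 0.00014).

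Pmvk, phosphomevalonate kinase, was at 17.9, 28.0 and 55.6 CPM in VIP nuclei and 1.49, 17.8 and 34.2 CPM in all nuclei, 0.86 ± 0.23 (edgeR adjusted p = 0.0030). Sqle was at 13.0, 37.7 and 83.7 CPM against 6.07, 23.7 and 44.3 CPM, 0.87 ± 0.23 (edgeR adjusted p = 0.0034). Fdps was at 10.6, 27.1 and 50.5 CPM against 1.36, 17.4 and 34.1 CPM, 0.75 ± 0.24 (edgeR adjusted p = 0.015). The values of these 3 genes overlapped between the populations. Gm43738, which overlaps Fdps, was 0.63 higher itself (edgeR adjusted p = 0.00037). Hmgcs1 was at 18.9, 45.9 and 75.9 CPM against 10.2, 29.6 and 56.6 CPM, 0.70 ± 0.22 (edgeR adjusted p = 0.011). Srebf2 was at 53.8, 96.6 and 122.8 CPM against 42.3, 65.5 and 109.3 CPM, 0.42 ± 0.13 (edgeR adjusted p = 0.010). Tmem97 was at 3.03, 23.4 and 37.0 CPM against 2.94, 8.55 and 24.8 CPM, 0.97 ± 0.28 (edgeR adjusted p = 0.0056). Srebf2 had the smallest fold change of the genes called. Insig1 was at 3.42, 16.6 and 45.3 CPM against 0.308, 6.59 and 20.1 CPM, 1.14 ± 0.36 (edgeR adjusted p = 0.012).

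On the other side, Scd2 was at 41.3, 70.2 and 113.5 CPM in VIP nuclei and 61.3, 136.5 and 298.1 CPM in all nuclei, -0.85 ± 0.18 on the log2 scale (edgeR adjusted p = 0.00017). Cyp46a1 was at -0.63 ± 0.21 (edgeR adjusted p = 0.019) and Abca1 at -0.89 ± 0.33 (edgeR adjusted p = 0.037). The same arm, efflux and turnover, had 0 of 4 genes above 0. Oligodendrocyte markers summed to 129.2 to 624.5 CPM in these VIP libraries and 608.0 to 4546.8 CPM in all nuclei, and all 10 were lower in VIP nuclei. Their part in the result was not tested. The wider lists are read against the same 10.7% of all genes called higher and 16.7% lower, and the counts of the oxysterol, SREBP processing and head group lists lie near those shares. Of them, 7 of 28 other fatty acid genes were higher and 7 lower, led by Acss2, which makes acetyl-CoA from acetate, at 1.15 ± 0.13 (edgeR adjusted p = 4.2e-10). In the oxysterol list 2 of 12 were higher and 3 lower. Cyp27a1, which hydroxylates the cholesterol side chain, reached at most 0.994 CPM in any of these VIP libraries and had medians of 27.2, 19.4 and 25.9 CPM in the Kir2.1, mutant and no-AAV groups of all nuclei. The other lower genes were Cyp7b1 at -2.25 ± 0.31 (edgeR adjusted p = 4.1e-08) and Apod at -3.56 ± 0.40 (edgeR adjusted p = 3.3e-10). Of 17 lipoprotein receptor and sterol transfer genes, 4 were higher and 1 lower, with Osbpl3 at 1.77 ± 0.15 (edgeR adjusted p = 6.4e-14) and Osbpl1a at -1.61 ± 0.15 (edgeR adjusted p = 5.9e-13). Osbpl3, which fell with Kir2.1 in neurons, is thus among the genes higher in VIP nuclei, and Osbpl1a, which fell too, among the lower. SREBP processing had 2 higher and 2 lower of 15, head group synthesis 1 and 1 of 13, and the isoprenoid branch 0 and 1 of 14.

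**Figure D5:**
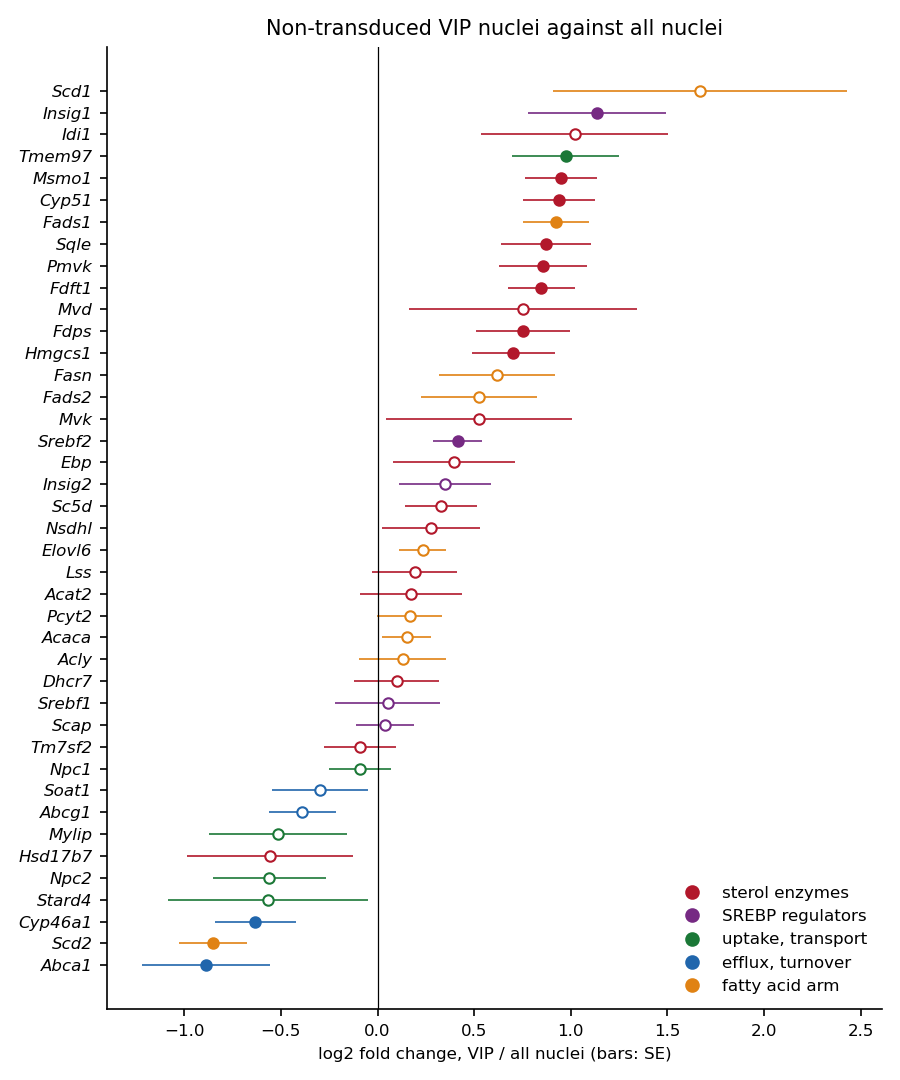
Log2 fold change of non-transduced VIP nuclei over all nuclei for the 41 genes, ordered by value, with bars of 1 SE and colours by arm; filled points passed the test. The 14 filled points run from -0.89 (Abca1) to 1.14 (Insig1), and Scd1 at 1.67 has a wide error and did not pass.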

How the data were processed

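RNA of 50 to 100 sorted nuclei per library was primed with oligo-dT and amplified over 17 cycles, per the labels' protocols. The Nextera XT kit used does not mark strand. The values are counts per gene, whole numbers deposited by the authors in 1 table with no normalization, and 0 columns belonged to no library. Per the submitters' processing notes, the build was mm10 and the tools were HOMER 4.9.1, cutadapt 1.18 and STAR 2.5.3a, with no role stated, and the annotation and strand setting are not given in the sources used here. Molecules carry no identifiers, so copies made in amplification cannot be told from separate molecules. The interval given for Scd1 therefore covers the counting of reads only, not that of molecules or the spread of libraries.

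Gene names came from GENCODE vM21. Tests used edgeR 4.0.16 in R 4.3.3 (TMM, filterByExpr with a minimum count of 10 and total of 15, glmQLFit, quasi-likelihood F test, Benjamini-Hochberg over all genes tested, threshold 0.05, two-sided), and the SE is the log2 fold change over the square root of F. VIP groups were fitted together, as were groups of all nuclei, and the 6 non-transduced groups for VIP against all nuclei. Scripts were tested on simulated data. The members and lists were chosen with earlier results of these data known. Every member is accounted for; those called in a test, or at least 1.5-fold apart in transduced VIP nuclei, are given by name, and of the wider lists up to 3 genes. Promoters were to be shown for genes called in neurons and 1.5-fold apart in VIP nuclei; Pcyt2 alone met this. Libraries are labelled as biological replicates; which of them share an animal is not labelled, and the p-values therefore reflect library-to-library spread, part of which may be technical. Alternatives were RLE scaling, DESeq2 1.42.0, no filter, sex, the replicate number as a block and leaving out libraries.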

Additional observations from a re-analysis of the deposited data

Results flagged for a closer look

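Within groups of 8 to 10 libraries, 8 of 134 sets of levels had a highest library farther from the next than Dixon's 95% limit allows, and chance alone gives about 1 in 20. In transduced neurons with Kir2.1, Tm7sf2 reached 406.1 CPM in library 10, where the next stood at 193.2 CPM. In Kir2.1 transduced VIP nuclei, Insig1 reached 49.0 CPM in library 3 (next 29.0 CPM), Mvk 55.9 CPM in library 5 (next 16.8 CPM) and Stard4 31.3 CPM in library 1 (next 13.9 CPM). Insig1 also reached 29.3 CPM in mutant transduced VIP library 7 (next 10.9 CPM). In mutant non-transduced VIP library 7, Fads1 reached 120.9 CPM (next 74.9 CPM). In all nuclei, Cyp46a1 reached 232.4 CPM in mutant library 5 (next 112.5 CPM), and Cyp51 reached 91.5 CPM in Kir2.1 library 4 (next 50.1 CPM).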

How the results depend on the processing

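The 2 calls in neurons were kept with RLE scaling, DESeq2, no filter, sex as a covariate, females only and each library left out (2 to 3 genes called higher, 0 lower, with Fdps added without Kir2.1 library 6 and Cyp46a1 without library 9), but with males only 0 genes were called higher. In transduced VIP nuclei, leaving out each library in turn gave 25 to 33 genes at least 1.5-fold higher and 0 lower, while 1 gene was lower in females only (Soat1) and 1 in males only (Abca1). Between AAV and no AAV in all nuclei, DESeq2 called 1 gene higher and 1 lower, and without the filter or in males only edgeR called 1 lower, Cyp46a1 each time. The cause of these shifts was not tested. Without Kir2.1 non-transduced VIP library 9, chosen after seeing the data, the contrast of VIP with all nuclei again gave 11 calls upward and 3 downward, and 0 were called between the vectors. Leaving out Kir2.1 library 1, or libraries 1 and 2, of all nuclei changed no count of members called. The numbers do not pair libraries across vectors: the correlation of same-numbered deviations had medians of -0.02 to 0.01. Within a vector, VIP and all nuclei of 1 number had medians of 0.0676 (Kir2.1), 0.083 (mutant, highest 0.423) and 0.0586 (no AAV), not every pair was over 0.1, and a VIP library correlated best with its own number in 5 of 10, 6 of 9 and 2 of 3 pairs, a hint from the data only. With the replicate block, transduced VIP nuclei had 28 genes at least 1.5-fold higher, Stard4 turned to -0.19, neurons kept 2 calls, calls over all genes in neurons went from 347 higher and 551 lower to 163 and 363, and VIP nuclei against all nuclei gave 11 calls upward and 5 downward (Abcg1 and Npc2 added). Over all genes DESeq2 called 557 higher and 831 lower in neurons, in non-transduced VIP nuclei 10 and 4, in all non-transduced nuclei 0 and 2, and between AAV and no AAV 71 and 1 in VIP nuclei (edgeR 2 and 0) and 362 and 20 in all nuclei (edgeR 42 and 3). Without the filter the median of all genes in the AAV contrasts moved to 0.24 and 0.34. Mvd, Idi1, Scd1 and Stard4 rest on few counts.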
